A study of Mus musculus with 9 samples.

Results

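The Nr4a orphan nuclear receptors Nr4a1, Nr4a2 and Nr4a3 were chosen by name, and all 3 are present among the 24060 genes of the table. They were followed in 9 RNA-seq libraries of peptide-activated CD8 T cells, with 3 libraries per clone (R7-I, R7-II, R7-III). The clones come from transnuclear mice, which were made by nuclear transfer from a single Toxoplasma-specific CD8 T cell and carry its T cell receptor (TCR) at the endogenous loci, on a Rag2-proficient BALB/c background. Each clone therefore stands for 1 TCR, and a difference between clones cannot be told apart from any other difference between the mouse lines. In all 3 groups, splenocytes were kept overnight with ROP7 peptide (10 µM) and IL-2 (10 ng/ml), and CD3+ CD8+ cells binding the H-2Ld-Rop7 reagent were sorted to a stated purity of 90 to 95%. Affinity for the cognate peptide is ordered in the series text R7-I over R7-III over R7-II, and self-reactivity R7-III over R7-I over R7-II, the latter by CD5 and Nur-77 protein in other work. In a membrane-anchored assay, however, the authors found R7-I and R7-III similar in affinity, with R7-II lower. The mice's age is not stated in the labels or methods, and unstimulated cells were not analysed here, so each value is a level after activation and not an induction.

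Nr4a genes are immediate-early genes. TCR engagement switches them on within hours through calcium, calcineurin and MAP kinase signalling, and their proteins bind DNA and act on transcription without a known natural ligand. Nr4a1 encodes Nur77, whose reporter is widely used to read the strength of a TCR signal. Nr4a2 encodes Nurr1, best known from dopamine neurons, and Nr4a3 encodes Nor1. In T cells the family is known for its part in negative selection, tolerance, regulatory T cells and the exhausted state. Nr4a1 and Nr4a2 can pair with the retinoid X receptors, whereas Nr4a3 does not.

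The 3 genes lie on different chromosomes. The RefSeq windows below, on build GRCm38.p6, run from 250 bases before to 50 bases after each start site and are shown because they hold the cyclic AMP response element (CRE) half-site through which CREB and ATF proteins act on early genes. Capitals mark the half-site TGACG on either strand, so that it also reads CGTCA. The Nr4a1 window is chr15:101266596-101266895 on the plus strand. The Nr4a2 window is chr2:57123954-57124253 on the minus strand. The Nr4a3 window is chr4:48045055-48045354 on the plus strand. Each window belongs to 1 annotated start site, and other start sites were not examined. That of Nr4a2 (57124003) is the outer end of its gene, but that of Nr4a1 (101266846) lies well inside a gene annotated from 101253902, and that of Nr4a3 (48045305) lies inside a gene annotated from 48045078. The whole Nr4a1 window and most of the Nr4a3 window thus lie within the annotated gene span, and the positions given next hold for these start sites alone.
Nr4a1: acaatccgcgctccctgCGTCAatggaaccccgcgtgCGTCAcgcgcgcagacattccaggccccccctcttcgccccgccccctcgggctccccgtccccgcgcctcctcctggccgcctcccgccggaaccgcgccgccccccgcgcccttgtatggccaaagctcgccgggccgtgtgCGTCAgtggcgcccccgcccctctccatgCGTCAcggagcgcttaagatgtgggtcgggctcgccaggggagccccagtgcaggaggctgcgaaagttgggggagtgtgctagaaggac
Nr4a2: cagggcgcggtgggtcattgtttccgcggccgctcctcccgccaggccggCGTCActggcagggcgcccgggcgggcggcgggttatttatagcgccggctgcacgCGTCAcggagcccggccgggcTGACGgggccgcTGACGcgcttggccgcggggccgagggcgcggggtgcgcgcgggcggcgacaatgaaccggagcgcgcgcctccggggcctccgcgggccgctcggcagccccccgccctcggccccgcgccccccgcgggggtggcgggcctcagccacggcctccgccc
Nr4a3: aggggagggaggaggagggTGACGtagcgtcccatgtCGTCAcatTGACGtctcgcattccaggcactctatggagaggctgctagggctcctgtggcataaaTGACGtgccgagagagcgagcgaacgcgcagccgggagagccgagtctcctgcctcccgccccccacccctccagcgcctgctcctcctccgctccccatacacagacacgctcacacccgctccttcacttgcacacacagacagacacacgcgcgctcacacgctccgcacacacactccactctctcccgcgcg

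Each of the 3 windows held 4 half-sites. Of 32851 RefSeq windows of the same length, 20.8% held at least 1 and 0.231% held 4 or more. Those of Nr4a1 start at -233, -213, -69 and -40 from the start site, those of Nr4a2 at -200, -144, -123 and -111, and those of Nr4a3 at -231, -213, -205 and -147. All 4 in Nr4a1 fall inside the longer element TGCGTCA, which the Nr4a2 and Nr4a3 windows lack and which 2.12% of windows hold. The full CRE TGACGTCA, held by 1.79% of windows, the AP-1 site TGAGTCA, held by 5.20%, and the Nr4a response element AAAGGTCA, held by 1.51%, were found in none of the 3. Only the Nr4a1 window had the Egr site GCGGGGGCG, at -60 (2.91% of windows), and none had its other form GCGTGGGCG (0.612% of windows). Only the Nr4a2 window had a MEF2 element, at -167 (1.86% of windows), which overlaps the letters TATAAA at -164 (13.6% of windows). The NFAT core GGAAA, held by 61.3% of windows, was found only in Nr4a2, at -230, and the CArG box of serum response factor, held by 1.63%, in none. These letters were searched on both strands and chosen after the sequences had been read, and binding was not measured.

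The levels below are in TPM, a unit that counts transcripts as a part of all transcripts in the library and is scaled for their length, so that genes can be compared with each other within a library. In bulk RNA, fewer cells expressing a gene and less of its RNA per cell cannot be told apart. One library stood apart from its clone: R7-II replicate 1 held Gbp2b, an interferon-inducible guanylate-binding protein, at 39.1 TPM, against 0.04 and 0.04 TPM in replicates 2 and 3 and 64.3 to 81.2 TPM in the libraries of R7-I and R7-III. Its Nr4a levels were also the highest of R7-II, so results are given with and without it, and the cause was not tested. For Gbp2b, replicates 2 and 3 were the libraries unlike all others, and the labels do not say which R7-II libraries are typical of the clone. Nr4a1 was the most abundant member in every library and Nr4a2 the least. In mean TPM, Nr4a1 ranked first of the 22 nuclear receptor genes tested in all 3 clones, and it stood at place 614 of all 11330 genes tested in R7-I, 441 in R7-II and 684 in R7-III. Nr4a3 ranked second of the 22 in R7-I and R7-III. In R7-II it ranked after Nr1h2, which encodes the oxysterol receptor LXR beta and is named here after its values were seen, at 131 against 106 TPM. Nr4a2 was in place 5 in each clone, below Rxrb. Summed over the family, the TPM was 441 ± 33.6 (SD, n = 3) in R7-I, 460 ± 45.8 in R7-II and 402 ± 12.2 in R7-III, and the R7-II libraries, at 420 to 510, overlapped those of R7-I, at 402 to 464, and lay above those of R7-III, at 394 to 416. These sums were not tested.

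**Figure D1:**
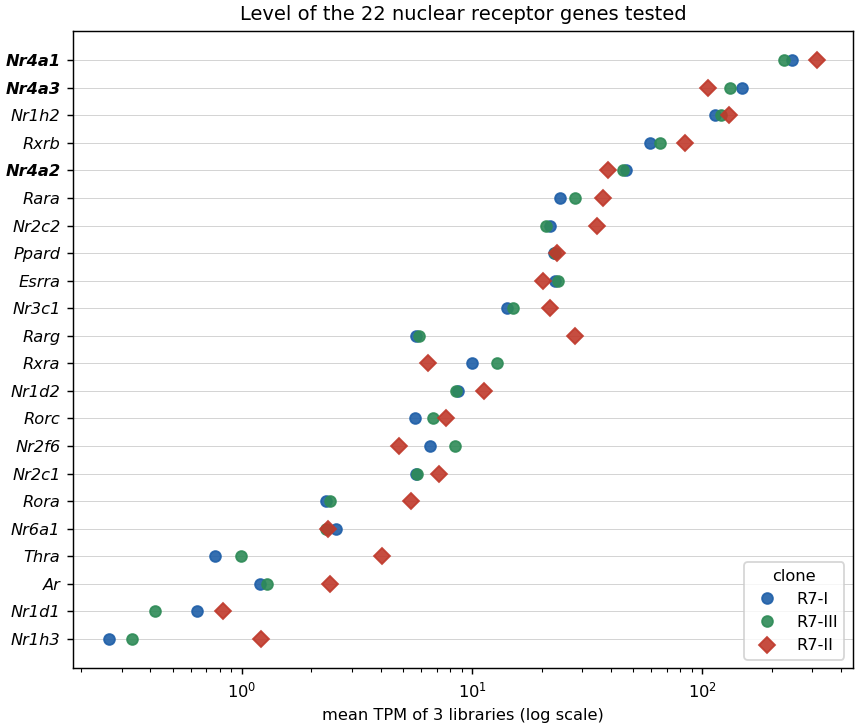
Mean TPM of 3 libraries on a log axis for each of the 22 nuclear receptor genes tested, with 1 point per clone and the Nr4a genes in bold. Nr4a1 leads the list in all 3 clones, at 225 to 315 TPM, and the R7-II point lies to the right of both others for Nr4a1 and to the left of both for Nr4a2 and Nr4a3.

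In R7-II, the clone of lowest affinity, Nr4a1 was at its highest and Nr4a3 at its lowest. Nr4a1 was 1.28-fold above R7-I and 1.39-fold above R7-III. Nr4a3 was at 0.713 of its R7-I level and 0.806 of its R7-III level. The mean of Nr4a2 was also lowest in R7-II, but that difference did not pass the threshold, an adjusted p of 0.01.

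Nr4a1 measured 219, 257 and 260.1 TPM in the 3 R7-I libraries. In R7-II it measured 348, 285 and 312 TPM. In R7-III it measured 222, 231 and 223 TPM. Every R7-II library lay above all 6 libraries of the other clones by TPM as deposited, and R7-I and R7-III overlapped. On the log2(TPM + 1) scale the difference of R7-II to R7-I was 0.36 (SE 0.0747, 95% interval 0.19 to 0.52, limma adjusted p = 0.00154). To R7-III it was 0.48 (interval 0.31 to 0.64, adjusted p = 2.38e-04). The R7-III minus R7-I difference was -0.12 (interval -0.28 to 0.05, adjusted p = 0.310), which did not pass. Genes called higher in R7-II were common, 40.6% of the 11330 against R7-I and 35.6% against R7-III, so the call on Nr4a1 is one of very many. Without R7-II replicate 1 the differences were 0.28 (adjusted p = 0.00540) and 0.40 (adjusted p = 7.68e-04). A larger absolute change than that of Nr4a1 was seen in 40.4% of genes against R7-I and in 27.6% against R7-III.

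Nr4a3 measured 140, 149 and 158 TPM in R7-I. In R7-II it measured 116, 99.0 and 103 TPM. In R7-III it measured 129.5, 136 and 129 TPM. The 3 clones did not overlap, with R7-I highest, R7-III between and R7-II lowest, which is the order of affinity in the series text. That order without overlap was found for 3.01% of all genes tested. The log2 difference of R7-II was -0.49 to R7-I (SE 0.0602, interval -0.62 to -0.35, limma adjusted p = 4.17e-05) and -0.31 to R7-III (interval -0.44 to -0.18, adjusted p = 9.90e-04). Without R7-II replicate 1 they were -0.55 and -0.38 (adjusted p = 1.49e-05 and 1.71e-04). Calls in this direction covered 15.5% of genes against R7-I and 18% against R7-III. R7-III differed from R7-I by -0.18 (interval -0.31 to -0.04), which did not pass after adjustment (adjusted p = 0.0667), so the place of R7-III in the order rests on libraries that did not overlap and not on a call. Of all genes tested, 6.96% were called higher in R7-III and 1.45% lower.

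Nr4a2, the least abundant member, did not pass in any comparison of TPM as deposited. It measured 43.25, 50.22 and 45.69 TPM in R7-I. In R7-II it measured 46.55, 36.05 and 34.33 TPM. In R7-III it measured 42.29, 48.81 and 45 TPM. R7-II replicate 1 lay within the range of the other clones and the other two R7-II libraries lay below it. The log2 difference of R7-II was -0.26 to R7-I (interval -0.48 to -0.03, limma adjusted p = 0.0466) and -0.22 to R7-III (interval -0.45 to 0.00, adjusted p = 0.0757). R7-III minus R7-I gave -0.03 (interval -0.26 to 0.20, adjusted p = 0.877). Without R7-II replicate 1 the first 2 differences were -0.39 (adjusted p = 0.00122) and -0.36 (adjusted p = 0.00214), both past the threshold, so 1 library decides this call. The RefSeq gene LOC105244150 overlaps the span of Nr4a2, and the library kit does not mark strand. Reads of both may therefore not be told apart where the 2 genes overlap. Nr4a1 and Nr4a3 had no overlapping RefSeq gene.

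**Figure D2:**
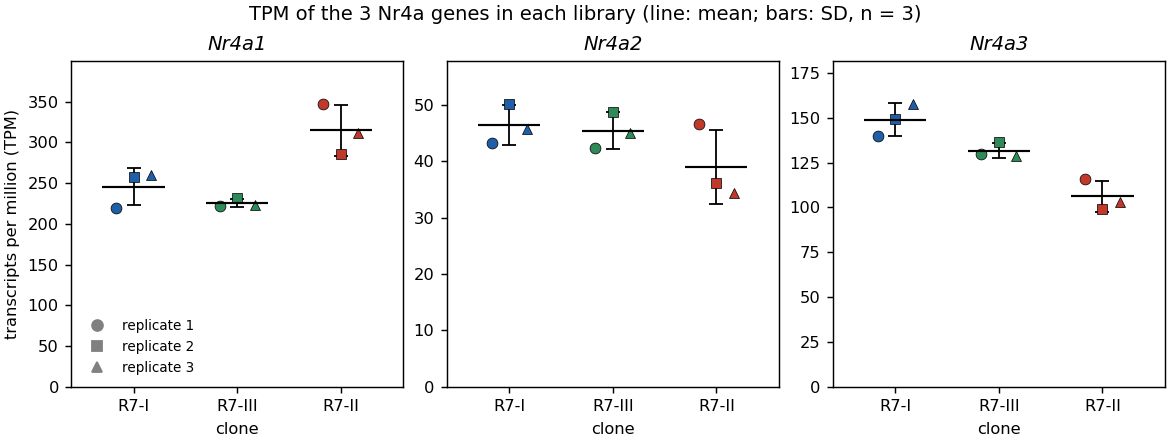
TPM of each Nr4a gene in the 9 libraries, by clone in the order of affinity, with points for replicates, lines for means and bars for SD (n = 3). The 3 R7-II points are the highest for Nr4a1, at 285 to 348 TPM, and the lowest for Nr4a3, at 99.0 to 116 TPM, while those of Nr4a2 spread over 34.33 to 46.55 TPM.

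How far libraries fail to overlap is itself common in these data. For 71.2% of genes the R7-II and R7-I libraries did not overlap, for 70.6% R7-II and R7-III, and for 41.9% R7-III and R7-I. Exact two-sided permutation tests were run on log2(TPM + 1), 12 in all. For R7-II against the other 6 libraries, Nr4a1 differed by 0.42 and Nr4a3 by -0.40, each with an exact p of 0.0238, the smallest that 3 against 6 libraries can give (0.143 after Benjamini-Hochberg adjustment). Nr4a2 differed by -0.24 (exact permutation p = 0.119, adjusted 0.179). Between 2 clones, 3 libraries against 3 cannot give an exact p below 0.1.

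The scale matters for these values. The median log2 difference over all genes tested came to 0.167 for R7-II minus R7-I, 0.121 for R7-II minus R7-III and 0.0447 for R7-III minus R7-I. Relative to that median, the Nr4a1 differences of R7-II were 0.19 and 0.36. Nr4a3 stood at -0.65 and -0.43, and Nr4a2 at -0.42 and -0.35. When each library was divided by a median-of-ratios factor, the Nr4a1 difference to R7-I was 0.17 and no longer called (adjusted p = 0.0424), with the lowest R7-II library at 272.3 and the highest R7-I library at 272.5, while that to R7-III stayed past the threshold at 0.34 (adjusted p = 0.00114). Nr4a2 then passed against both R7-I, at -0.44 (adjusted p = 0.00245), and R7-III, at -0.36 (adjusted p = 0.00830). Nr4a3 was at -0.67 and -0.44 (adjusted p = 2.21e-06 and 3.69e-05). Quantile normalization gave 0.42 and 0.53 for Nr4a1, -0.44 and -0.37 for Nr4a2, and -0.51 and -0.32 for Nr4a3, all past the threshold. Over all genes called, the share with the higher level in R7-II, when set against R7-I, was 72.4% as deposited, 46.1% after median-of-ratios scaling and 45.9% after quantile normalization. Against R7-III these shares were 66.4%, 46.8% and 49.3%. For R7-III minus R7-I they were 82.8%, 56.6% and 62.6%. In the same order of scalings, genes called higher in R7-II numbered 4604, 2847 and 2558 against R7-I, and 4038, 2814 and 2759 against R7-III. The all-gene shares set beside the gene lists below hold for TPM as deposited.

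**Figure D3:**
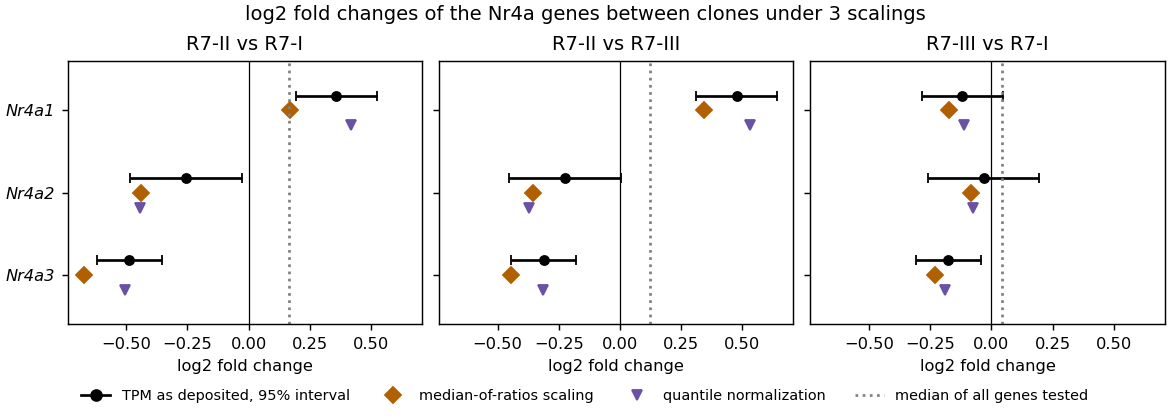
log2 differences of the 3 Nr4a genes between clones, with black points and 95% intervals for TPM as deposited, diamonds for median-of-ratios scaling, triangles for quantile normalization and a dotted line at the median of all genes tested. In both comparisons with R7-II, Nr4a1 lies to the right of 0 and Nr4a2 and Nr4a3 to the left under all 3 scalings, with the diamond of Nr4a1 against R7-I, at 0.17, no longer called.

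Shares within a library do not change with a factor applied to the whole library. Nr4a1 made up 54.5, 56.3 and 56.1% of the summed Nr4a TPM in R7-I. In R7-II it made up 68.1, 67.9 and 69.4%. In R7-III it made up 56.4, 55.5 and 56.2%. The R7-II libraries were well apart from the other 6, which lay within a few points of each other. Nr4a3 took 33.8 ± 1.04% (SD, n = 3) in R7-I, 23.1 ± 0.410% in R7-II and 32.7 ± 0.206% in R7-III. Nr4a2 took 10.5 ± 0.602%, 8.45 ± 0.750% and 11.3 ± 0.497%. R7-II differed from the other 6 libraries by 12.6 points for Nr4a1, -2.46 points for Nr4a2 and -10.2 points for Nr4a3. Each had an exact two-sided permutation p of 0.0238, the smallest possible, and 0.0952 after adjustment over the 12 share tests. The 3 shares of a library sum to 100%, so these tests are not independent of each other. R7-III and R7-I differed by 0.387 points for Nr4a1 (exact permutation p = 0.6), 0.733 for Nr4a2 (p = 0.3) and -1.12 for Nr4a3 (p = 0.3).

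The same parting can be read as the ratio of Nr4a1 to Nr4a3. It was 1.57, 1.72 and 1.65 in the R7-I libraries. It was 3.00, 2.88 and 3.02 in R7-II and 1.71, 1.69 and 1.73 in R7-III. The SD within a clone was at most 0.0764, against a gap between means of 2.97 in R7-II and 1.71 in R7-III. R7-II replicate 1 was not apart from replicates 2 and 3 in this ratio.

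**Figure D4:**
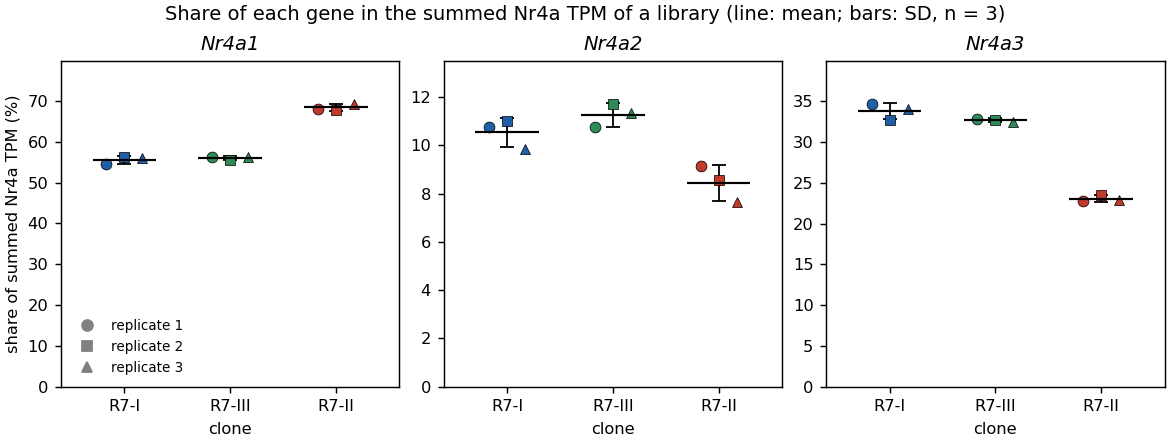
Share of each Nr4a gene in the summed Nr4a TPM of a library, in percent, by clone in the order of affinity, with points for replicates, lines for means and bars for SD (n = 3). Nr4a1 lies at 67.9 to 69.4% in R7-II and at 54.5 to 56.4% in the other 6 libraries, and Nr4a3 at 22.7 to 23.5% against 32.5 to 34.7%.

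The members were set beside 24 other early genes of the TCR response. Against R7-I, R7-II had 8 called higher and 9 lower, and against R7-III 6 higher and 6 lower. Median-of-ratios scaling turned these counts into 4 and 10 against R7-I and 5 and 7 against R7-III. After that scaling, 46.1% of all calls against R7-I and 46.8% against R7-III were higher in R7-II. The median log2 difference of the 24 genes was 0.05 and 0.03, against 0.167 and 0.121 for all genes. Dusp5, a nuclear ERK phosphatase, was the single gene called between R7-III and R7-I, and it was lower in R7-III (-0.33, adjusted p = 0.00875). Of all genes, 1.45% were called lower there. Dusp5 was not called after quantile normalization, and median-of-ratios scaling gave 2 early genes lower. For all genes tested, the shares called were 40.6% higher and 15.5% lower against R7-I and 35.6% and 18% against R7-III, so calls in both directions are common in these data.

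Fosb, an AP-1 subunit, was the early gene most above the other clones, at 6.48 ± 0.251 TPM in R7-II, 1.40 ± 0.164 in R7-I and 1.26 ± 0.0611 in R7-III. Egr1, a zinc finger factor switched on by ERK, measured 179, 189 and 165 TPM in R7-II against 95.0 to 104 TPM in the other 6 libraries. Its log2 difference was 0.85 to R7-I (adjusted p = 3.25e-07) and 0.84 to R7-III (adjusted p = 3.53e-07). Its relatives differed less. Egr3 was 0.50 above R7-I (adjusted p = 7.38e-04, not called under either other scaling) and 0.21 above R7-III (adjusted p = 0.0740), and Egr2 was at 0.07 (adjusted p = 0.447, and negative under both other scalings) and 0.25 (adjusted p = 0.0121). Nab2, a corepressor of Egr proteins, was 0.18 and 0.22 higher (adjusted p = 0.00158 and 3.98e-04), but after median-of-ratios scaling it stood at -0.01 and 0.08 and was called in neither. Cd69, an activation marker, was 0.06 above both clones (adjusted p = 0.248 and 0.198), and its sign turned under median-of-ratios scaling.

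On the side of Nr4a3 stood Ier3, a stress and survival gene, at 5.14 ± 0.727 TPM in R7-II, 13.0 ± 2.14 in R7-I and 13.2 ± 1.47 in R7-III, the lowest early gene in both comparisons. Irf4, whose level follows TCR strength and which drives effector differentiation, was lower, at -0.31 against R7-I (adjusted p = 2.97e-04) and -0.21 against R7-III (adjusted p = 0.00400). Myc, the driver of growth after activation, was at -0.25 (adjusted p = 8.84e-05) and -0.13 (adjusted p = 0.00542). Under quantile normalization the difference of Irf4 to R7-III was -0.14 and that of Myc -0.04, neither of them called.

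**Figure D5:**
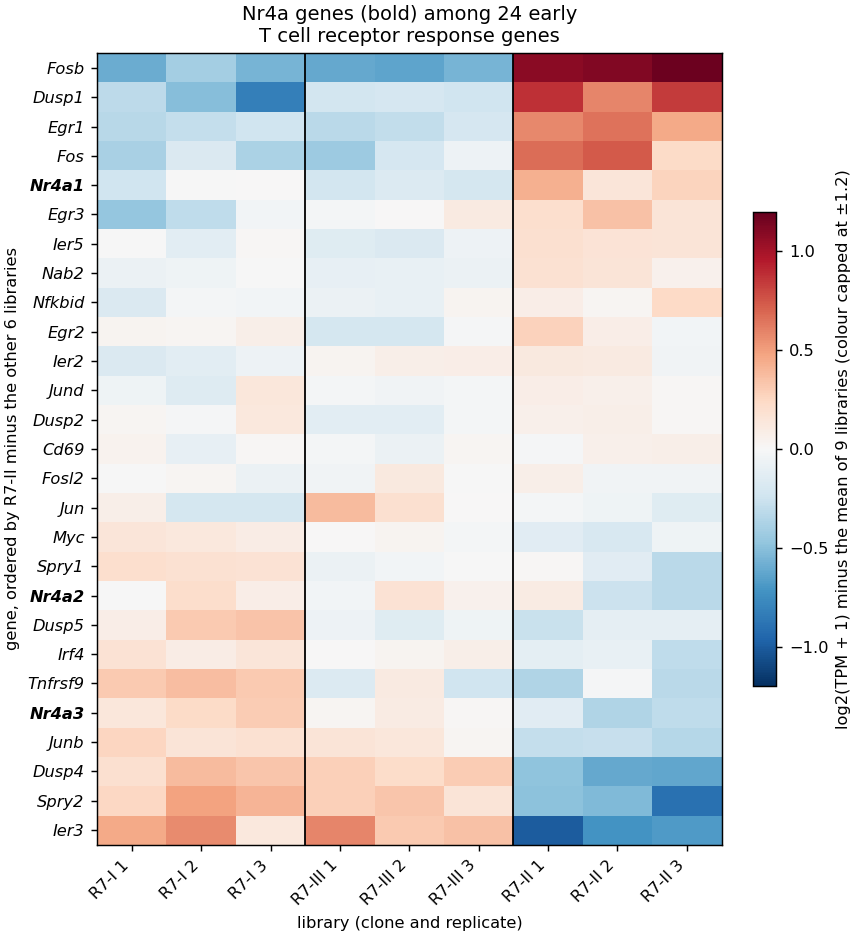
log2(TPM + 1) of the 3 Nr4a genes (bold) and 24 early TCR genes in the 9 libraries, each as the difference from that gene's mean over all libraries, with genes ordered by R7-II minus the other 6 libraries and clones in the order of affinity. Nr4a1 sits near the top beside Fos and Egr3, and Nr4a3 near the bottom between Tnfrsf9 and Junb.

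Genes listed for the control of Nr4a1, activators and repressors together, were mostly higher in R7-II by TPM as deposited. The list held 19 calcineurin, NFAT, MEF2, class IIa histone deacetylase, CREB and serum response factor genes, of which R7-II had 16 called higher and none lower against R7-I, and 13 higher and none lower against R7-III, where 40.6% and 35.6% of all genes were higher. After median-of-ratios scaling the counts were 6 higher and 2 lower against R7-I, and 6 higher and 1 lower against R7-III, and after quantile normalization 7 and 2, and 8 and 2. Of all calls, 46.1% and 46.8% were higher after median-of-ratios scaling, and 45.9% and 49.3% after quantile normalization. The median log2 difference of the list was 0.31 and 0.28, against 0.167 and 0.121 for all genes. R7-III had 2 higher than R7-I, where 6.96% of all genes were, and 1 under each other scaling.

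Mef2d, a MEF2 factor through which calcium acts on the Nr4a1 promoter, measured 124, 103 and 116 TPM in R7-II against 69.7 to 79.5 TPM in the other libraries. Its log2 difference was 0.59 to R7-I and 0.68 to R7-III, and it passed under all 3 scalings. Class IIa histone deacetylases hold MEF2 targets silent until they are exported from the nucleus. Hdac5 was the most different gene of the list, at 21.7 ± 2.10 TPM in R7-II, 8.02 ± 0.253 in R7-I and 11.3 ± 0.872 in R7-III. Hdac7, which represses Nr4a1 in thymocytes, was the more abundant, at 360 ± 18.8 TPM in R7-II, 302 ± 14.8 in R7-I and 355 ± 19.5 in R7-III. It was called against R7-I (0.25, adjusted p = 0.00118), but not after median-of-ratios scaling (0.06, adjusted p = 0.324). Against R7-III it was not called (0.02, adjusted p = 0.768), and its sign turned under median-of-ratios scaling. Cabin1, a repressor of calcineurin and MEF2, was 0.29 and 0.24 higher and was not called against either clone after the other 2 scalings.

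Of 44 other nuclear receptors listed, 19 reached a TPM above 1 in some library and were tested, and in R7-II 12 of these were higher and 1 lower against R7-I, and 10 higher and 2 lower against R7-III, where 40.6% and 35.6% of all genes were higher. Median-of-ratios scaling gave 9 higher and 3 lower in both comparisons, and quantile normalization 8 and 5, and 8 and 3. The all-gene shares above hold for TPM as deposited. Of all calls, 46.1% and 46.8% were higher after median-of-ratios scaling, and 45.9% and 49.3% after quantile normalization. No receptor of this list was called between R7-III and R7-I at an adjusted p of 0.01 under any of the 3 scalings. Their median log2 differences were 0.38 and 0.35, against 0.167 and 0.121 for all genes.

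Rxra and Rxrb encode retinoid X receptors, the dimer partners of Nr4a1 and Nr4a2. Rxra measured 4.40, 7.43 and 7.53 TPM in R7-II against 8.82 to 14.7 TPM in the other 6 libraries, and was lower by -0.58 against R7-I (adjusted p = 0.00889) and -0.92 against R7-III (adjusted p = 5.49e-04). Rxrb was the more abundant and went the other way, at 83.9 ± 3.64 TPM in R7-II, 59.0 ± 3.50 in R7-I and 65.4 ± 1.43 in R7-III. Rarg, a retinoic acid receptor, differed the most, with 32.6, 22.4 and 28.9 TPM in R7-II against 5.34 to 6.08 TPM in the others. Nr3c1, the glucocorticoid receptor, was at 21.7 ± 2.07 TPM in R7-II, 14.1 ± 0.561 in R7-I and 15.1 ± 0.0379 in R7-III. All 4 kept direction and call under both other scalings.

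Of 18 genes linked with Nr4a factors in tolerant and exhausted T cells, 14 were tested, with 6 higher and 3 lower in R7-II against R7-I, and 5 higher and 7 lower against R7-III. The shares over all genes were 40.6% higher and 15.5% lower, and 35.6% and 18%, and the counts against R7-I are near them. The list medians were 0.10 and -0.25, against 0.167 and 0.121 for all genes. Median-of-ratios scaling gave 4 and 6, and 5 and 7. Of all calls after that scaling, 46.1% and 46.8% were higher in R7-II. Ctla4, an inhibitory receptor, was 2.31 and 2.15 higher on the log2 scale, whereas Pdcd1, which encodes PD-1, was at -0.38 and -0.52. Cd200 was at -1.05 against R7-I and Tigit at -1.25 against R7-III, both surface molecules tied to inhibitory signals. Tox, a factor of the exhausted state, was highest in R7-III, at 14.1 ± 0.808 TPM against 10.9 ± 0.376 in R7-II and 8.09 ± 0.677 in R7-I, and its R7-II minus R7-I difference was lost under both other scalings. R7-III and R7-I differed for 6 genes of the list, all higher in R7-III, where 6.96% of all genes were, with Tox the foremost (0.73, adjusted p = 1.26e-04), and for 2 under each other scaling.

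AP-1 and effector genes, whose expression Nr4a factors are known to oppose, were mainly lower in R7-II. Of 15 tested out of 16, 3 were higher and 8 lower than in R7-I, and 2 higher and 9 lower than in R7-III, with medians of -0.50 and -0.46, against 0.167 and 0.121 for all genes, of which 15.5% and 18% were called lower. Median-of-ratios scaling gave 2 higher and 11 lower in both. Of all calls after that scaling, 46.1% and 46.8% were higher in R7-II. Gzmb, which encodes the cytotoxic protease granzyme B, was at -3.21 and -2.28, and Tbx21, which encodes the effector regulator T-bet, at -2.94 and -3.05. Id2, an inhibitor of E proteins, was the highest, at 1.08 and 1.24. Tnf was lower in R7-III than in R7-I (-0.35, adjusted p = 0.00917) and was the one gene of the list called there, though not after quantile normalization. Of all genes, 1.45% were called lower in that comparison.

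Of 13 cell death genes tied to Nr4a1 in thymocytes, 7 were higher and 4 lower in R7-II against R7-I, and 5 higher and 6 lower against R7-III. Over all genes 40.6% were higher and 15.5% lower, and 35.6% and 18%. The list medians, 0.19 and 0.15, were close to those of all genes, 0.167 and 0.121. The proapoptotic Bbc3 was 1.76 and 1.34 higher, Bcl2l11, which encodes Bim, 0.69 and 0.57, and the survival gene Bcl2, whose protein Nur77 can bind, 1.59 and 1.28. Fasl, the death ligand, was at -1.44 and -1.16. Each of the 4 passed under all 3 scalings. R7-III had 2 genes of the list called higher than R7-I, where 6.96% of all genes were.

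The series text orders self-reactivity by CD5 and Nur-77. Cd5, a surface brake on TCR signalling, measured 541, 564 and 531 TPM in the R7-I libraries. It was at 354, 423 and 304 TPM in those of R7-II, and at 673, 689 and 691 TPM in those of R7-III. R7-II was lower than both, by -0.61 against R7-I (adjusted p = 1.37e-04) and -0.94 against R7-III (adjusted p = 7.14e-06), and R7-III was 0.33 above R7-I without passing (adjusted p = 0.0287). Nr4a1, the gene of Nur-77, did not follow this order in the activated cells, its mean being highest in R7-II. That order rests on protein in other work, whereas the value here is RNA after overnight culture with peptide. After median-of-ratios scaling the lowest R7-II library, at 272.3, fell just below the highest R7-I library, at 272.5. Of the 4 self-reactivity genes tested, 2 were called lower in R7-II in each comparison, Cd5 and Cd6. Of all genes, 15.5% were called lower in R7-II against R7-I and 18% against R7-III. The other 2, Ly6c1 and Ly6c2, measured 0.34 to 1.63 and 1.51 to 12.62 TPM and were not called by TPM as deposited. None of the 4 was called between R7-III and R7-I.

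Genes raised by cell handling were measured beside these, since immediate-early genes respond to handling too. Of 11 tested out of 13, 4 were higher and 4 lower in R7-II against R7-I, and 5 higher and 3 lower against R7-III (3 and 7, and 3 and 5, after median-of-ratios scaling). Over all genes, by TPM as deposited, 40.6% were higher and 15.5% lower against R7-I, and 35.6% and 18% against R7-III. Of all calls after median-of-ratios scaling, 46.1% and 46.8% were higher in R7-II. Socs3 was the most raised (2.35 and 2.61) and Atf3 the lowest (-1.15 against R7-I). The summed level of the list was 7511 to 7819 TPM in R7-I, 5574 to 5935 in R7-II and 6844 to 6959 in R7-III. Hspa8, a chaperone and the most abundant gene of the list, made up most of these sums. Its range was 6525 to 6822 TPM in R7-I, 4643 to 4955 in R7-II and 5940 to 6047 in R7-III. Hspa8 was lower in R7-III than in R7-I (-0.16, adjusted p = 0.00294, lost after quantile normalization). The part of handling in the Nr4a values was not tested.

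Markers of other cell types were higher in R7-II. All 9 B cell markers tested and all 9 MHC class II genes were called higher in R7-II than in either clone by TPM as deposited. Of all genes, 40.6% were called higher than in R7-I and 35.6% higher than in R7-III. Against R7-I, 7 MHC class II genes were called under each other scaling, and 8 B cell markers after quantile normalization. Against R7-III, 8 MHC class II genes were called after quantile normalization. Of the 11 myeloid markers tested, 9 were higher than in R7-I and 10 higher than in R7-III. These were 7 and 8 after median-of-ratios scaling and 4 and 8 after quantile normalization. No gene of these 3 lists was called for R7-III minus R7-I. The B cell receptor genes Cd79b and Cd79a were the B cell markers most above R7-I (2.11) and R7-III (2.64), H2-Ob and Cd74 the MHC class II genes (2.14 and 2.74), and Lyz2, a lysozyme, the myeloid marker in both (4.34 and 3.35). Their levels in R7-II were 13.7 to 25.4 TPM for Cd79b, 55.4 to 91.3 for Cd74 and 13.8 to 56.7 for Lyz2. The summed B cell markers reached 84.6, 40.1 and 67.9 TPM in R7-II replicates 1, 2 and 3, against 9.68 to 16.8 in R7-I and 6.16 to 9.20 in R7-III. MHC class II genes summed to 121 to 199 TPM in R7-II, 34.1 to 52.6 in R7-I and 25.7 to 30.4 in R7-III, and myeloid markers to 109 to 179, 68.3 to 76.6 and 68.8 to 75.9. No B cell marker was at 0 in any library, and in R7-I and R7-III 1 to 3 of 12 myeloid markers were. Nr4a1 ranked the R7-II libraries in the same order as the B cell sum did. The 3 R7-II libraries had Nr4a1 shares of 67.9 to 69.4% and B cell sums of 40.1 to 84.6 TPM. All 3 sums lay above those of the other clones, so clone and B cell signal cannot be told apart here. The part of these cells in the Nr4a values was not tested.

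The CD8 T cell identity of the libraries was plain. All 11 markers of the list were above 0 in each library, with sums of 3313 to 3371 TPM in R7-I, 4517 to 4581 in R7-II and 3485 to 3586 in R7-III. Of these, 10 were higher in R7-II than in either clone, and 7 and 8 after median-of-ratios scaling, and 3 were higher in R7-III than in R7-I. The shares of all genes called higher in these 3 comparisons were 40.6%, 35.6% and 6.96% by TPM as deposited. Of all calls after median-of-ratios scaling, 46.1% against R7-I and 46.8% against R7-III were higher in R7-II. Cd3g, a CD3 subunit, was the most above R7-I (0.81) and Cd2, an adhesion molecule, the most above R7-III (0.71). CD4 T and regulatory T cell markers summed to 3.36 to 8.01 TPM over all libraries. Of the 2 tested, Foxp3 was higher and Cd40lg lower in R7-II than in R7-III, the Foxp3 call being lost after quantile normalization. Foxp3 was low, at 0.62 to 1.07 TPM in R7-II and 0.18 to 0.3 in R7-III, and was not tested after median-of-ratios scaling. Of the 5 natural killer cell genes, Eomes alone was tested and was not called, except as lower in R7-II than in R7-I after quantile normalization.

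Genes with the pattern most like each member were found by Pearson correlation of log2(TPM + 1) over the 9 libraries. These are descriptions, since libraries of a clone share their source. The closest to Nr4a1 were Zfp14 (r = 0.989), Cbll1 (0.979), Dgat1 (0.977), Mapkbp1 (0.976) and Armc10 (0.976). Zfp14 was low, at 0.83 to 2.11 TPM, and Mapkbp1 measured 22.35, 19.02 and 19.62 TPM in R7-II against 15.1 to 16.9 TPM in the others. For Nr4a3 they were Cluh (0.981), Jmjd6 (0.981), Chsy1 (0.974), Ddx20 (0.971) and Rfk (0.970). Cluh, an RNA-binding protein of mitochondrial transcripts, measured 154.7, 159.8 and 159.4 TPM in the R7-I libraries, 135.5, 129.9 and 132.0 TPM in those of R7-II, and 148.1, 149.0 and 148.6 TPM in those of R7-III, the same order of clones as Nr4a3. By Spearman correlation Chsy1, Ddx20 and Jmjd6 stayed among the first 5 for Nr4a3 and none of the 5 for Nr4a1.

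For Nr4a2 the closest were Hmgcs1 (0.920), Daam1 (0.905), 9430038I01Rik (0.904), Gbp2b (0.891) and Hic1 (0.882). Gbp2b was nearly absent from R7-II replicates 2 and 3, at 0.04 TPM each, and was at 39.1 TPM or more in every other library. Daam1 parted the same way: 1.45 TPM in R7-II replicate 1, 0.35 and 0.29 in replicates 2 and 3, and at least 1.62 elsewhere. Among themselves, Nr4a2 and Nr4a3 correlated at 0.800 and Nr4a1 at -0.328 with Nr4a2 and -0.567 with Nr4a3, again over 9 libraries and as a description.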

How the data were processed

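The libraries were made from polyadenylated RNA with an unstranded TruSeq kit and sequenced as 100-base single-end reads. The deposited values are TPM that the authors computed with RSEM 1.2.11, which they used both to align the reads and to count per gene on mm10; the read mapper called within it is not named there. TPM sums to a fixed total in each library and keeps no depth, so the depth behind each value is unknown, and 13738 to 14434 genes were above 0 per library. The authors tested counts with DESeq2 1.8.1; counts were not used here.

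Genes with a maximum TPM above 1 (11330) were fitted over all 9 libraries as log2(TPM + 1) with limma 3.58.1 (R 4.3.3; empirical Bayes with trend), and called at a Benjamini-Hochberg adjusted p of 0.01 over all genes tested. Fold changes on this scale understate those of low genes. Exact permutation tests used scipy 1.17.1 (Python 3.11.15). The fit was also run on simulated data with fewer changed genes and larger effects than seen here. That run therefore does not show how well differences of the members' size are found. Alternatives were pseudocounts of 0.1 and 5, other filters and scalings, no trend, 6 libraries, a replicate block, Spearman correlation, a threshold of 0.05 and each library left out.

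Groups and replicate numbers came from the sample labels, which call the libraries biological replicates without naming mice, so p-values measure the spread between these libraries. Deviations of same-numbered libraries correlated at -0.0449 to 0.0888 over 9 pairs, so the numbers were not taken to pair the samples. Same-clone libraries correlated at 0.992 to 0.997.

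The members and all gene lists were chosen with earlier results of these data known. Named genes are the members, fixed examples of each list, the gene of each list most changed in each direction, the most abundant markers and the 5 genes most correlated with each member. The rule sets which genes may be named; not every one is printed, and one is not reported here. Nr1h2, Cd6, Ly6c1 and Ly6c2 were named after their values were seen. Windows came from the RefSeq promoter table, in which all 3 members matched. Protein sequences were not used here.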

Additional observations from a re-analysis of the deposited data

How the results depend on the processing

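Over 19 alternatives each, the Nr4a1 and Nr4a3 differences of R7-II to R7-III and the Nr4a3 difference to R7-I kept their direction and call. They ranged over 0.34 to 0.55, -0.44 to -0.26 and -0.67 to -0.44 on the log2 scale. The Nr4a1 difference to R7-I ranged over 0.17 to 0.43 and lost its call in 1 alternative, median-of-ratios scaling (0.17). That of Nr4a2 to R7-I passed after median-of-ratios scaling (-0.44), quantile normalization (-0.44) and at a threshold of 0.05 (-0.26), and ran from -0.39 to -0.17 with single libraries left out. That of Nr4a2 to R7-III passed after both scalings (-0.36 and -0.37) and ran from -0.36 to -0.14; without R7-II replicate 1 Nr4a2 passed against both clones. Its sign between R7-III and R7-I turned without R7-I replicate 2 (0.026) or R7-III replicate 1 (0.017), over a range of -0.084 to 0.026.

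Genes called between R7-III and R7-I numbered 953, against 436 to 1120 with single libraries left out and 2142 at a threshold of 0.05. The exact comparisons of R7-II with the other 6 libraries were recomputed under alternatives chosen after seeing the data. After median-of-ratios scaling Nr4a1 was at 0.26 (exact permutation p = 0.0714) and Nr4a2 at -0.40 (p = 0.0238). With single libraries left out they ran from 0.34 to 0.49 for Nr4a1, -0.37 to -0.16 for Nr4a2 and -0.47 to -0.35 for Nr4a3, and the shares from 12.2 to 12.9, -2.79 to -2.05 and -10.4 to -9.89 points. Without an R7-II library the smallest exact p is 0.0714, so none of these can pass. The replicate block gave 0.36 for Nr4a1, -0.26 for Nr4a2 and -0.49 for Nr4a3 against R7-I (adjusted p = 0.00430, 0.0612 and 2.37e-04) and changed no call on a member. List counts stayed within 1.5 times in 1453 of 1596 cases. The cause of these changes was not tested.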
